A study of Mus musculus with 8 samples.

Results

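The Hox genes encode the homeodomain transcription factors that give cells their position along the body axis. In mammals they lie in 4 clusters, HoxA, HoxB, HoxC and HoxD, in which genes of the same paralog number descend from a common ancestor and low numbers lie at the end of the cluster that is switched on first and most anteriorly in the embryo. Hox proteins bind DNA together with TALE homeodomain partners of the PBX, MEIS and PKNOX families. In the kidney, the paralog 11 genes are needed to induce the embryonic organ, the paralog 10 genes act in its stroma, and the Hoxb7 promoter is widely used to mark the ureteric bud and the collecting duct that grows from it. Adult kidney keeps the expression of many Hox genes, while Polycomb proteins hold silent clusters shut and Trithorax proteins keep active ones open.

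Members were all rows of the expression table whose symbol is Hox followed by a cluster letter and a paralog number, which gave 39 of 21705 genes (11 of HoxA, 10 of HoxB, 9 of HoxC and 9 of HoxD). The table holds RNA sequencing of mouse kidney cortex from 4 libraries labelled Sav1-/- and treated with tamoxifen (Sav1-null) and 4 labelled Sav1+/+ and treated with vehicle (wild type), all on a mixed background. Sav1 encodes salvador, the scaffold of the Hippo kinases that restrain the co-activators YAP and TAZ, and the comparison asks which transcripts differ when it is lost. The promoter that drives the recombinase, the time after tamoxifen, the age, and whether each library is a separate animal are not stated in the labels, so the p-values rest on library-to-library spread, which may be technical.

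Each library was scaled so that the upper quartile of its nonzero values lies at about 1000, and the values are not corrected for transcript length. Judged from the value of 1 read, the Sav1-null libraries held about 15700000 to 20900000 reads and the wild-type libraries about 20500000 to 25000000, and 1 read was worth 0.781 to 1.03 in this unit. Sav1 had values of 983, 914, 982 and 714 in Sav1-null libraries, against 1504, 1743, 959 and 1193 in wild-type libraries (log2 fold change -0.56 ± 0.19 SE, limma adjusted p = 0.0220; two-sided exact permutation p = 0.0857, the smallest possible being 0.0286). The groups overlapped in this gene, and the labels do not say which exons were removed. Xist, the RNA that silences an X chromosome in females, stood at 9280 to 16095 in Sav1-null libraries and at 0 to 0.989 in wild-type libraries, and the Y-linked gene Ddx3y at 0 in every Sav1-null library against 734 to 844 in wild-type libraries. Genotype, treatment and sex-chromosome transcripts separate the same libraries and cannot be told apart in any result that follows. Column names differ in form between the groups and reuse the same sample numbers in each. Any difference between runs that followed the groups could not be told apart from these and was not tested. In bulk tissue, fewer cells of a type and less RNA per cell cannot be told apart either.

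Most tested Hox genes were higher in Sav1-null cortex, among them every tested gene of HoxB and HoxD. Of the 39 members, 28 averaged 10 or more across the libraries and were tested, and 20 of these were higher and 4 lower at a limma adjusted p under 0.05. Over all 13677 tested genes 43.9% were called higher and 25.2% lower, 69.1% in all. All 8 tested HoxB genes and all 5 tested HoxD genes were higher. The called HoxA genes were divided by position, with low-numbered genes higher, among them Hoxa2, Hoxa3 and Hoxa5, and Hoxa7, Hoxa9 and Hoxa10 lower. Hoxa4 and Hoxa11 were not called (log2 fold change 0.02 and 0.63). In HoxC, Hoxc4, Hoxc8 and Hoxc9 were higher and Hoxc10 was lower. The median log2 fold change of the tested members was 0.98, against 0.23 over all tested genes. In 19 members every Sav1-null library lay above every wild-type library, and in 4 every one lay below, where the shares over all tested genes were 41.0% and 24.1%.

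**Figure D1:**
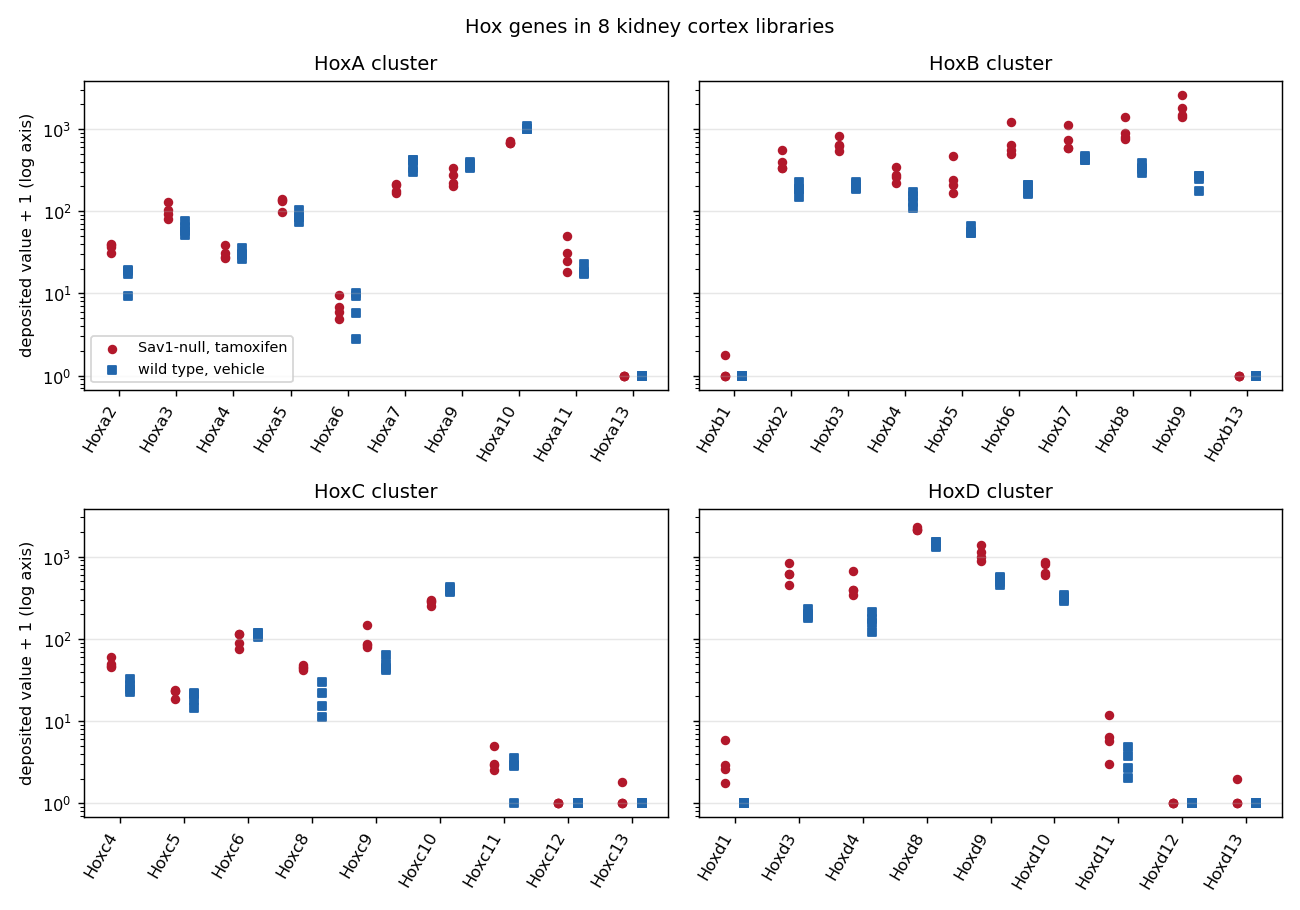
Deposited value plus 1 (log axis) of the Hox genes reported here in every library, in 4 panels by cluster and ordered by paralog number, with Sav1-null libraries as red circles and wild-type libraries as blue squares. The groups are fully apart in all tested HoxB and HoxD genes, Hoxa7, Hoxa9, Hoxa10 and Hoxc10 run the other way, and the members at the high-numbered ends lie at or near 0.

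Scaling moved both the calls and the median of all genes. The 3 other scalings tried put it at 0.01 (median-of-ratios), -0.03 (quantile) and 0.61 (equal totals), against 0.23 as deposited. All 8 HoxB and all 5 HoxD genes were positive under each of these, and were called under each except Hoxb4 with quantile scaling (0.44, limma adjusted p = 0.0553). Median-of-ratios scaling gave 18 members higher and 5 lower, quantile scaling 12 and 7, and equal totals 22 and 2. Of the 7 HoxA and 4 HoxC calls, Hoxa7 and Hoxa10 were kept under every scaling.

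As examples, the 250 bases upstream of a RefSeq transcript start are printed for Hoxb8 and Hoxd4, which rose, and Hoxa9 and Hoxa10, which fell. They come from build GRCm38.p6, a later build than the mm9 of the expression table. These 4 were picked by hand, each holds a motif match, and they do not stand for the members that rose or fell. The windows are chr11:96281655-96281904 on the plus strand for Hoxb8, chr2:74721728-74721977 on the plus strand for Hoxd4, chr6:52227371-52227620 on the minus strand for Hoxa9 and chr6:52234940-52235189 on the minus strand for Hoxa10. Each is written 5′ to 3′ on the gene's strand, and capitals mark matches to any of 4 motifs searched on both strands: TEAD (GGAATG), STAT (TTCNNNGAA), HOX-PBX (TGATNNAT) and the TATA box (TATAAA).
Hoxb8: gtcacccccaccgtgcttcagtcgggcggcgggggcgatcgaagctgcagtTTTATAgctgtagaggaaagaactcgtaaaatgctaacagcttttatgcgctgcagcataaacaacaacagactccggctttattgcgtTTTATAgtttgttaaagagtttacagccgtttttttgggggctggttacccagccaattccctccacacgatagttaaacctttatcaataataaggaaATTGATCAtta
Hoxd4: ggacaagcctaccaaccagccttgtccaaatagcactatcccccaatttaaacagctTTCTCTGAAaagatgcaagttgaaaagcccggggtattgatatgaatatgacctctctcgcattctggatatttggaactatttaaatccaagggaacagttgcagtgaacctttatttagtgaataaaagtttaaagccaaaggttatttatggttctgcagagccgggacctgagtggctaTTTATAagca
Hoxa9: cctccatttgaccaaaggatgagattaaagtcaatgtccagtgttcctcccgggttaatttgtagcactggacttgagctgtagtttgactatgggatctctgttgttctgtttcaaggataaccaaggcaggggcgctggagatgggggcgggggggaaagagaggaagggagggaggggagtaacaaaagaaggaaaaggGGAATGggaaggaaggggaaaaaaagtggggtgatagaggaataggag
Hoxa10: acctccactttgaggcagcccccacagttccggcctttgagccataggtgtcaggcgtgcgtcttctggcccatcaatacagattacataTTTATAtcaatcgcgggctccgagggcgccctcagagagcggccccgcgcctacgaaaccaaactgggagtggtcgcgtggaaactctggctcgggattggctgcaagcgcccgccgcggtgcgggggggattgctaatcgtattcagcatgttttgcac

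RefSeq windows were found for 22 of the 39 members, 24 windows in all. Among those with no match to any of the 4 motifs were Hoxb4, Hoxd3, Hoxd8, Hoxd9 and Hoxd10, which rose, and Hoxa7, which fell. A further window of Hoxa10, not printed, also held no match. The TEAD letters, those bound by the DNA-binding partners of YAP, stood in 1 of the 24 (4.2%), before Hoxa9 at 48 bases upstream, and in 12.6% of all 32536 windows. The STAT letters also stood in 1 (4.2%), before Hoxd4 at 193 bases upstream, against 7.0% of all windows. The HOX-PBX letters stood in 4 (16.7%), before Hoxa2, Hoxb1, Hoxb8 and Hoxd11, against 7.7% of all windows, and in Hoxb8 the match began 11 bases upstream of the start. The TATA letters stood in 4 (16.7%) against 12.3%, before Hoxa10, Hoxb8, Hoxd4 and Hoxd13, and those printed begin 199 and 110 bases upstream of Hoxb8, 10 of Hoxd4 and 160 of Hoxa10, all on the opposite strand. These matches describe the letters of the windows and not binding. No window was matched for Hoxb9.

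HoxB rose as a whole. Hoxb9, a patterning gene of the thoracic skeleton, had 1404, 1784, 1472 and 2578 in Sav1-null libraries, against 268, 266, 245 and 177 in wild-type libraries. The lowest Sav1-null library was far above the highest wild-type one, and the fold change was 7.41 (log2 fold change 2.89 ± 0.21 SE, limma adjusted p = 3.84e-06). This was the highest log2 fold change of the 28 tested members. Hoxb5, which acts in gut innervation, had 165, 236, 208 and 469 in Sav1-null libraries and 53.5, 64.5, 55.5 and 52.6 in wild-type libraries, a 4.34-fold rise (limma adjusted p = 0.000143). Hoxb6, a neighbour of Hoxb5, had 546, 639, 494 and 1198 in Sav1-null libraries and 166, 160, 209 and 205 in wild-type libraries, a 3.66-fold rise (limma adjusted p = 0.000153). In both genes Sav1-null replicate 4 was far above the other libraries, and without it the log2 fold changes were 1.81 and 1.59, against 2.12 and 1.87 with it.

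The other 5 tested HoxB genes rose by less. Hoxb3, a hindbrain and pharyngeal gene, averaged 655 ± 113 in Sav1-null and 203 ± 18.6 in wild-type libraries (SD, n = 4 each), a 3.18-fold difference. Hoxb8, known for holding myeloid progenitors in an immature state when overexpressed, averaged 952 ± 296 in Sav1-null and 333 ± 42.9 in wild-type libraries (2.78-fold). Hoxb2, a hindbrain gene, had 337, 390, 333 and 560 in Sav1-null libraries, against 186, 147, 224 and 186 in wild-type libraries (2.15-fold). Hoxb4, which expands blood stem cells when overexpressed, had 220, 274, 262 and 343 in Sav1-null libraries, against 151, 168, 127 and 107 in wild-type libraries (1.98-fold). The groups were apart in both genes. Hoxb7, the ureteric bud gene, had 589, 728, 587 and 1111 in Sav1-null libraries, against 420, 441, 463 and 413 in wild-type libraries, and its 1.67-fold rise was the smallest of the 8 tested (limma adjusted p = 0.00602; the other 4 lay between 6.5e-06 and 0.000934). In GENCODE vM21 models an antisense transcript, Hoxb3os, covers 58.5% of the exon bases of Hoxb2 and 63.9% of those of Hoxb3. The counting is not stated to use strand, so the values of these 2 genes are uncertain. Antisense models also cover 21.2% of the exon bases of Hoxa3, 16.0% of Hoxa4, 23.3% of Hoxa7 and 10.7% of Hoxd3. The ends of the cluster were silent, with 1 read of Hoxb1 in all Sav1-null libraries together and none in wild-type libraries, and no read of Hoxb13, the prostate and hindgut gene, in any library.

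HoxD rose with less spread. Hoxd3, which patterns the first vertebrae, had 446, 618, 614 and 844 in Sav1-null libraries, against 187, 232, 179 and 200 in wild-type libraries. The groups were well apart, at 3.09-fold (limma adjusted p = 4.31e-05). Hoxd4, another gene of the neck vertebrae, had 339, 386, 391 and 674 in Sav1-null libraries and 153, 208, 171 and 120 in wild-type libraries (2.69-fold, limma adjusted p = 0.000504). The values of Hoxd3 and Hoxd4 were whole multiples of 1 read (to within 0.02 read) in 0 of 8 libraries, and those of Hoxa3 and Hoxa11 in 2 of 8, where the other 35 members were whole in all 8, so the levels of these 4 genes are uncertain. Hoxd10, a gene of the lumbar spinal cord and hindlimb, had 591, 801, 634 and 869 in Sav1-null libraries and 305, 285, 322 and 335 in wild-type libraries (2.29-fold, limma adjusted p = 4.29e-05). The same held for Hoxd9, its spinal cord and limb neighbour, with no overlap at 889, 1138, 997 and 1377 in Sav1-null libraries and 454, 483, 543 and 563 in wild-type libraries (2.13-fold, limma adjusted p = 9.47e-05).

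Hoxd8 had the highest mean of all members in both groups. It had 2100, 2254, 2140 and 2107 in Sav1-null libraries, against 1487, 1330, 1302 and 1496 in wild-type libraries. Its 1.53-fold rise was small beside those of its neighbours but exceeded the spread in both groups (limma adjusted p = 6.11e-05). The remaining HoxD genes were near the detection limit. Hoxd11, one of the kidney-inducing paralog 11 genes, had 7, 11, 6 and 2 reads in Sav1-null libraries and 3, 2, 4 and 1 in wild-type libraries, which overlap. Hoxd1 had 1, 2, 2 and 5 reads in Sav1-null libraries and none in wild-type libraries. With both group means at or under the level of 3 reads per library no fold is given. Without the filter on low values Hoxd1 was called higher and no other untested member was. Hoxd13, a digit and genital gene, had 1 read in all, and Hoxd12 none.

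**Figure D2:**
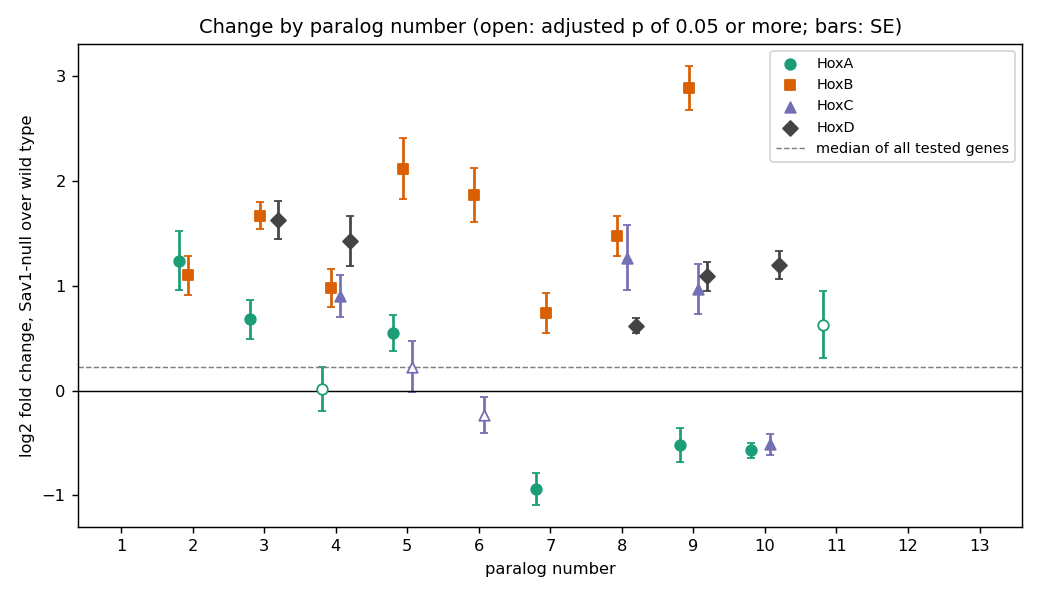
Log2 fold change (Sav1-null relative to wild type, from values with 1 added) of the tested members reported here against paralog number, with the cluster given by colour and shape, SE as bars, filled symbols for called members and a dashed line at the median of all tested genes, 0.23. HoxB reaches 2.89 at paralog 9, while HoxA is positive at paralogs 2 to 5 and 11 and negative at 7, 9 and 10.

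In HoxA, most low-numbered genes were higher. Hoxa2, which patterns the second pharyngeal arch, had 29.7, 39.1, 37.9 and 35.4 in Sav1-null libraries and 18.1, 17.6, 16.3 and 8.25 in wild-type libraries, fully apart (2.35-fold, limma adjusted p = 0.00352). Hoxa3, needed for the thymus and parathyroid, had 91.4, 127, 101 and 78.7 in Sav1-null libraries and 63.5, 57.0, 74.3 and 50.2 in wild-type libraries (1.61-fold, limma adjusted p = 0.0108). Hoxa5, a lung gene, averaged 126 ± 19.7 in Sav1-null and 85.4 ± 11.4 in wild-type libraries, with overlapping groups (1.46-fold, limma adjusted p = 0.0157). With quantile scaling none of these 3 was called, and Hoxa3 and Hoxa5 turned negative (log2 fold change -0.20 and -0.24). Median-of-ratios scaling also ended the calls of Hoxa3 (0.46, limma adjusted p = 0.0521) and Hoxa5 (0.32, limma adjusted p = 0.0996), and Hoxa5 was not called without wild-type replicates 2 and 3 together (0.53, limma adjusted p = 0.0874). Hoxa4 averaged 30.1 ± 5.79 in Sav1-null and 29.5 ± 4.11 in wild-type libraries and was not called as deposited (95% interval of the log2 fold change from -0.46 to 0.50), but was called lower with quantile scaling (-1.10, limma adjusted p = 0.00229).

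Hoxa7, Hoxa9 and Hoxa10, the last the most abundant of HoxA, were lower, while Hoxa11 was not called. Hoxa10, which patterns the uterus and lumbar vertebrae and has the highest mean of the cluster, had 678, 668, 703 and 674 in Sav1-null libraries, against 1084, 986, 989 and 995 in wild-type libraries. Spread was small in both groups, and the 1.49-fold fall was called under every alternative (limma adjusted p = 5.85e-05 as deposited, from 8.61e-06 to 0.0303 under the alternatives). Hoxa7, a thoracic patterning gene, had 205, 167, 176 and 212 in Sav1-null libraries and 296, 338, 416 and 423 in wild-type libraries, a 1.92-fold fall (limma adjusted p = 0.000322). Hoxa9, a regulator of blood progenitors, had 203, 271, 222 and 330 in Sav1-null libraries and 333, 340, 396 and 378 in wild-type libraries. The highest Sav1-null library lay just under the lowest wild-type one (1.43-fold fall, limma adjusted p = 0.0143), and equal totals ended the call (-0.13 on the log2 scale, limma adjusted p = 0.475), as did leaving out wild-type replicates 2 and 3 together (-0.49, limma adjusted p = 0.0856). Hoxa11, needed with its paralogs for the embryonic kidney, averaged 30.2 ± 13.9 in Sav1-null and 17.9 ± 2.48 in wild-type libraries and was not called (log2 fold change 0.63, 95% interval from -0.09 to 1.35). It was called higher without Sav1-null replicate 4 (0.85, limma adjusted p = 0.0248) and with equal totals (limma adjusted p = 0.0150), and stood at -0.51 with quantile scaling. Its exons overlap an antisense RNA, listed in the table as Hoxa11as, over 24.8% of their bases, and that RNA averaged 26.3 ± 7.09 in Sav1-null and 10.1 ± 1.44 in wild-type libraries (2.41-fold, limma adjusted p = 0.00228), a call lost with quantile scaling. Hoxa6 had 27 reads in all Sav1-null and 26 in all wild-type libraries, and Hoxa13, a gene of digits and the urogenital sinus, had none.

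HoxC was the cluster with the lowest sum. Hoxc8, a gene of the thoracic skeleton and its motor neurons, had 42.9, 44.0, 46.6 and 40.4 in Sav1-null libraries, against 29.0, 14.2, 21.1 and 10.3 in wild-type libraries, fully apart at 2.42-fold (limma adjusted p = 0.00451). Hoxc9, which sets thoracic motor neuron identity, had 78.1, 84.1, 84.5 and 145 in Sav1-null libraries and 62.6, 43.6, 47.8 and 40.2 in wild-type libraries (1.96-fold, limma adjusted p = 0.00487). Hoxc4 had 58.6, 44.0, 49.0 and 45.3 in Sav1-null libraries and 23.6, 26.8, 31.6 and 21.6 in wild-type libraries (1.87-fold, limma adjusted p = 0.00282). All 3 calls were lost with quantile scaling, where Hoxc4 turned to -0.18. Hoxc10, a lumbar gene with the highest mean of the cluster, ran the other way. It had 280, 290, 246 and 297 in Sav1-null libraries and 401, 383, 373 and 428 in wild-type libraries (1.42-fold lower, limma adjusted p = 0.00118), a call lost with equal totals (-0.13, limma adjusted p = 0.292). Hoxc5 and Hoxc6 averaged 21.1 ± 2.33 and 97.4 ± 19.7 in Sav1-null libraries, against 17.9 ± 3.40 and 113 ± 6.10 in wild-type libraries, and neither was called as deposited (95% intervals from -0.30 to 0.77 and from -0.60 to 0.15). Hoxc5 was called lower with quantile scaling (-0.99, limma adjusted p = 0.00578) and higher with equal totals (0.60, limma adjusted p = 0.0455). Hoxc6 was called lower with median-of-ratios scaling (-0.45, limma adjusted p = 0.0322) and with quantile scaling (-1.01, limma adjusted p = 0.000651). Hoxc11 had 11 reads in Sav1-null and 7 in wild-type libraries. Hoxc13, the hair gene, had 1 read in Sav1-null and none in wild-type libraries, and Hoxc12 had none in either.

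HoxB summed to 5838 ± 1802 in Sav1-null and 1776 ± 132 in wild-type libraries (SD, n = 4 each), a ratio of 3.29, or 2.80 without Sav1-null replicate 4. HoxD summed to 5060 ± 644 in Sav1-null and 2590 ± 87.1 in wild-type libraries (ratio 1.95, or 1.85 without that library). HoxA summed to 1505 ± 20.1 in Sav1-null and 1974 ± 66.0 in wild-type libraries (ratio 0.76). HoxC summed to 590 ± 28.2 in Sav1-null and 622 ± 21.1 in wild-type libraries (ratio 0.95). As deposited, the HoxC groups overlapped and the others did not. These sums were not taken under the other scalings. Equal totals divides Sav1-null libraries by 0.835 to 0.888 and wild-type libraries by 1.124 to 1.141, which raises Sav1-null sums relative to wild-type ones. The HoxA and HoxC results on sums therefore hold for the deposited scaling only. Together the members took 68.1 to 106 of every 100000 units in Sav1-null libraries and 32.7 to 34.1 in wild-type libraries. Expressed per kilobase of exon, HoxB made up 47.1% ± 5.07 of the Hox signal in Sav1-null and 30.4% ± 1.69 in wild-type libraries, and HoxA 10.2% ± 1.89 in Sav1-null and 23.5% ± 0.386 in wild-type libraries.

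**Figure D3:**
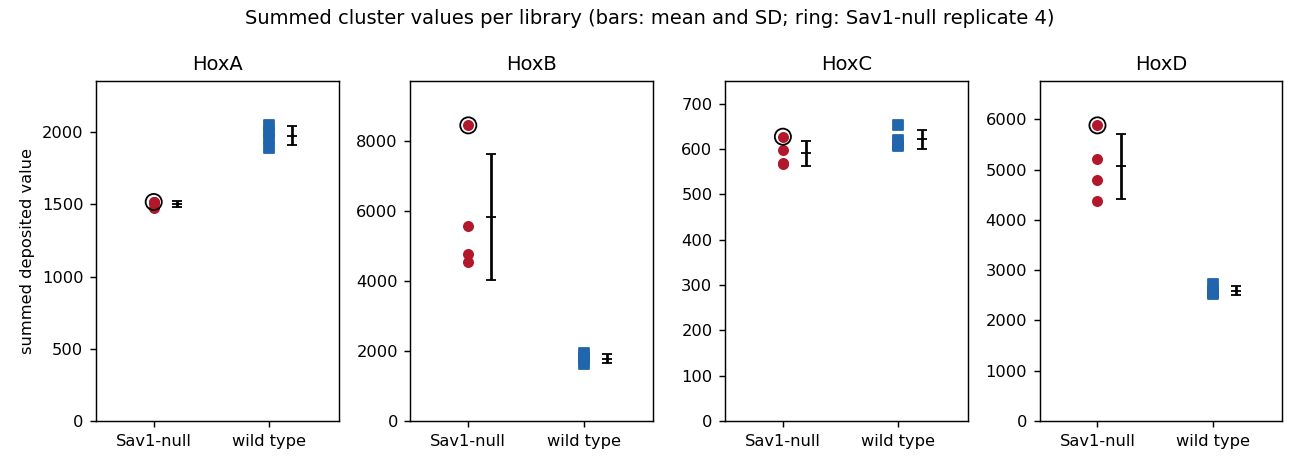
Summed deposited values of each Hox cluster in each library, Sav1-null (red circles) left of wild type (blue squares), with mean and SD beside the points, axes from 0 and a ring around Sav1-null replicate 4. On the deposited scaling, HoxB and HoxD are higher in every Sav1-null library, HoxA is lower in every one, and the HoxC groups overlap. Other scalings are not drawn.

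At paralog numbers 9 and 10, Hoxb9, Hoxd9 and Hoxd10 were higher while Hoxa9 and Hoxa10 were lower (Hoxa9 not called with equal totals). In HoxC, Hoxc9 was higher, a call lost with quantile scaling, and Hoxc10 lower, a call lost with equal totals. Per kilobase of exon, the paralog 9 genes summed to 1338 ± 336 in Sav1-null and 465 ± 20.1 in wild-type libraries. Hoxb9 supplied 52.1% ± 2.30 of that sum in Sav1-null libraries, against 20.1% ± 3.95 in wild-type libraries. Hoxa9 supplied 5.95% ± 0.252 in Sav1-null libraries, against 24.1% ± 1.10 in wild-type libraries. The paralog 10 genes summed to 761 ± 78.5 per kilobase in Sav1-null and 702 ± 26.8 in wild-type libraries, which overlap. Hoxd10 supplied 47.3 to 56.4% of the paralog 10 sum in Sav1-null libraries, against 23.2 to 25.8% in wild-type libraries, while Hoxa10 supplied 25.3 to 31.9% against 43.7 to 47.7% and Hoxc10 18.3 to 21.3% against 28.4 to 30.9%. On the same per-kilobase scale Hoxd8 had the highest mean of all members in both groups, at 784 in Sav1-null and 512 in wild-type libraries. Hoxb9 was second in Sav1-null libraries at 703 and rank 12 in wild-type libraries at 92.9, while Hoxa10 was rank 9 at 217 in Sav1-null and rank 3 at 322 in wild-type libraries. Of the 9 members with paralog numbers 11 to 13, only Hoxa11 passed the filter and 4 (Hoxa13, Hoxb13, Hoxc12 and Hoxd12) were at 0 in every library.

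Markers of other tissue components were counted beside the Hox genes. The counts below stand beside 43.9% of all tested genes higher and 25.2% lower. Aqp4 is in both the principal cell and the inner medulla lists. Of 14 tested markers of collecting duct principal cells, the descendants of the ureteric bud, 12 were higher and 0 lower (12 and 1 with median-of-ratios scaling), with a median log2 fold change of 1.73 and summed levels of 50262 to 71534 in Sav1-null and 31696 to 33910 in wild-type libraries. Elf5 was 14.9-fold and Gata3 3.81-fold higher, both encoding transcription factors, Stc1, which encodes a secreted hormone, 5.39-fold, and Scnn1g, a sodium channel subunit, 3.33-fold. Of 16 proximal tubule markers 14 were lower and 0 higher (10 lower and 1 higher with quantile scaling, 13 and 1 with equal totals), with sums of 75299 to 240332 in Sav1-null and 565242 to 637391 in wild-type libraries. All 10 tested leukocyte markers were higher, with sums of 5028 to 6277 in Sav1-null and 975 to 1561 in wild-type libraries. Of 11 stromal markers 8 were higher and 0 lower (5 and 0 with quantile scaling), with sums of 4235 to 12162 in Sav1-null and 1549 to 2828 in wild-type libraries. Of 7 inner medulla and papilla markers 5 were higher and 1 lower, with sums of 7352 to 9806 in Sav1-null and 2747 to 3887 in wild-type libraries. Of 10 endothelial markers 0 were higher and 1 lower (6 lower with quantile scaling), and of 7 podocyte markers 2 were higher and 3 lower. Among thick ascending limb and distal tubule markers 2 of 8 were higher and 2 lower (4 and 2 with quantile scaling). Of 10 urothelium markers 2 were tested, both higher (1 with quantile scaling). The list summed to 1749 to 3627 in Sav1-null and 12.4 to 115 in wild-type libraries, and most of the Sav1-null sum came from 1 gene. The uroplakin genes were below the filter, with Upk2 and Upk3b at 0 in wild-type libraries and Upk1b and Upk3a at 0 in Sav1-null libraries. Upk1a stood at 7.81 to 13.8 in Sav1-null and 0 to 6.70 in wild-type libraries, and Upk3b at 4.74 to 30.5 in Sav1-null libraries. Of the fat markers only Fabp4 was tested and not called, with Lep and Retn at 0 in every library. Havcr1, a marker of injured proximal tubule, stood at 16582, 8933, 10330 and 6275 in Sav1-null libraries, against 23.6, 1099, 665 and 15.5 in wild-type libraries. Every Sav1-null library was above every wild-type one (limma adjusted p = 0.00194). The part of any of these cell types, or of injury, in the Hox values was not tested.

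Sav1-null replicate 4 stood apart in both the Hox genes and the markers. It had the highest value of its group in 8 of 8 tested HoxB and 4 of 5 tested HoxD genes, and a HoxB sum of 8460 where the other Sav1-null libraries had 4554 to 5575. The same library had the lowest proximal tubule sum (75299, others 159870 to 240332), the lowest stromal sum (4235, others 10660 to 12162), the lowest endothelial sum (1841, others 3607 to 4325) and the highest principal cell sum (71534, others 50262 to 68179). Its thick ascending limb and distal tubule sum (47034, others 74282 to 93601) and podocyte sum (2135, others 3488 to 4162) were also the lowest. Among principal cell markers Aqp3, Aqp4 and Calb1 were lowest in this library, while most others were highest in it. Without Sav1-null replicate 4, 21 members were higher and 4 lower, and all 24 calls were kept.

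**Figure D4:**
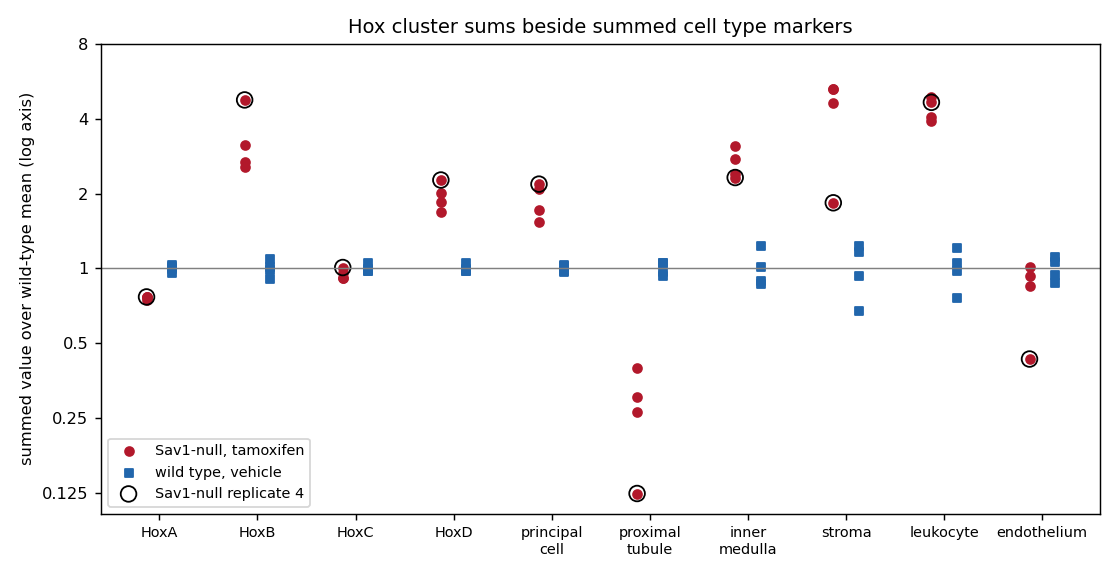
Summed values of the 4 Hox clusters and of 6 marker lists in each library, divided by the wild-type mean of the same sum (log axis), with Sav1-null libraries as red circles left of wild-type libraries as blue squares and a ring around Sav1-null replicate 4. Among Sav1-null libraries the ringed one is the highest for HoxB, HoxD and principal cells and the lowest for the proximal tubule, stroma and endothelium.

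Of 8 tested TALE partners of Hox proteins, 3 were higher and 2 lower (5 and 0 with equal totals), shares near the 43.9% and 25.2% over all tested genes. Meis3 had 85.9, 116, 95.6 and 203 in Sav1-null libraries, against 5.44, 13.4, 10.5 and 5.15 in wild-type libraries (13.2-fold, limma adjusted p = 2.26e-05), and Pknox2 averaged 79.3 ± 27.5 in Sav1-null and 11.7 ± 3.67 in wild-type libraries (6.28-fold). Pbx2 rose 1.21-fold, a call lost with median-of-ratios and quantile scaling (log2 fold change 0.05 and 0.15). Pknox1 fell 1.37-fold and Pbx3 1.40-fold, calls lost with equal totals (-0.07 and -0.10).

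Chromatin regulators of the clusters were mostly higher where called. Of 12 Trithorax genes and H3K27 demethylases 9 were higher and 0 lower (8 and 0 with median-of-ratios scaling), among them the demethylase gene Kdm6a (2.49-fold), Mll1, the MLL1 methyltransferase that maintains Hox expression (2.41-fold), Wbp7, which encodes MLL2 (KMT2B) (2.12-fold), and the MLL cofactor gene Psip1 (2.11-fold). Of 17 Polycomb genes 7 were higher and 1 lower, and 15 and 0 with equal totals. They included Cbx6 (2.81-fold), Pcgf2 (2.44-fold), Phc2 (2.16-fold) and Rnf2, the H2A ubiquitin ligase (1.66-fold), against Cbx8 (1.43-fold lower, a call lost with equal totals). Against the background of 43.9% of all tested genes higher, the Polycomb count was close to the share over all genes.

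Retinoic acid is the classical inducer of low-numbered Hox genes. Of 8 tested genes of its pathway 6 were higher and 1 lower (5 and 1 with quantile scaling), beside 43.9% and 25.2% of all tested genes. Aldh1a1 and Aldh1a2, which make retinoic acid, averaged 1892 ± 707 and 450 ± 111 in Sav1-null libraries, against 62.8 ± 23.0 and 41.5 ± 22.8 in wild-type libraries (29.4-fold and 11.7-fold). The receptor gene Rarg rose 3.94-fold, and Cyp26b1, which degrades retinoic acid, fell 4.79-fold. The Cdx genes, upstream activators of Hox genes in the embryo, were absent or nearly so and none was tested. Cdx1 and Cdx2 were at 0 in every library. Of 9 tested partners and targets of Hox proteins in kidney formation 5 were higher and 2 lower (4 and 4 with quantile scaling), where 43.9% and 25.2% of all tested genes were. Pax8 rose 2.09-fold, Sall1 1.87-fold, Six4 3.08-fold and Wnt4 26.2-fold, while Gfra1, a receptor of the inducer GDNF, fell 4.51-fold, and Lhx1, a transcription factor gene of the forming nephron, was called lower at 167 in Sav1-null and 276 in wild-type libraries. Wnt4 had 56.2, 110, 63.2 and 293 in Sav1-null libraries, against 0, 3.35, 8.61 and 5.15 in wild-type libraries. Its fold rests on these low wild-type values and is uncertain. Six2, the nephron progenitor gene, had no read in wild-type libraries and was below the filter.

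Of 10 tested genes that flank the clusters, 6 were higher and 2 lower (4 and 3 with median-of-ratios scaling), where 43.9% and 25.2% of all tested genes were. Skap1, beside HoxB, rose 6.15-fold and Snx10, near HoxA, 17.7-fold, while Hibadh, an enzyme of valine breakdown near HoxA, fell 3.75-fold and Tax1bp1 1.53-fold, the second a call lost with quantile scaling. Cbx5 and Calcoco1, near HoxC, rose 1.56-fold and 1.54-fold. The homeobox genes Evx1 and Evx2, at the high-numbered ends of HoxA and HoxD, were at 0 in every library. The microRNA genes that lie within the clusters, Mir10a, Mir10b, Mir196a-1, Mir196a-2, Mir196b and Mir615, were listed at 0 in every library. The libraries are of mRNA, so these zeros do not measure the microRNAs.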

How the data were processed

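RNA of kidney cortex was sequenced from stranded mRNA libraries, per the labels' protocols. The authors deposited 1 normalized value per gene and library, a signal and not a count. Per the submitters' processing notes, RSEM, SAMtools and Picard 1.64 were used with mouse build mm9. No source used here gives the aligner, the annotation or the use of strand. Because the deposited values are normalized, no count model was used. Most still lay on the read scale, as from 92.7% to 93.3% of values below 400 came within 0.02 of a whole number of reads.

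The test covered 13677 genes averaging 10 or more (8028 were removed), on log2(value + 1) with limma 3.58.1 in R 4.3.3 (variances moderated along an intensity trend, with 6 residual degrees of freedom), with Benjamini-Hochberg adjustment over all tested genes. This scale understates changes of low genes. The script was tested on simulated data. Exon lengths and overlaps came from GENCODE vM21 and upstream windows from RefSeq, both on GRCm38. All same-group library pairs differed by more than sampling noise (chi-square over its degrees of freedom, 12.9 to 114). Samples were grouped by title. The members and lists were chosen with earlier results of these data known. Within a cluster, values per library are given for up to 3 called members with the highest and 3 with the lowest log2 fold change and for the one with the highest mean. List genes are named up to 4 per direction, smallest p first. Lists have no test of their own. Values of some genes that these rules name are not reported here, though counts and sums include them. Alternatives were other pseudocounts, filters and scalings, a replicate block, no intensity trend and leaving out libraries.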

Additional observations from a re-analysis of the deposited data

Results flagged for a closer look

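In groups of 4 libraries, 6 of 70 groups had a highest or lowest library whose gap to the nearest other exceeded Dixon's 95% limit as a share of the range. Chance flags about 1 in 20 groups. Sav1-null replicate 4 was the library in 3 of them. It had the lowest Hoxa5 of its group, at 96.5 where the others had 133 to 140. It had the highest Hoxc9, at 145 where the others had 78.1 to 84.5, and the highest Hoxd4, at 674 where the others had 339 to 391. The calls of these 3 genes were kept without that library. In Sav1-null replicate 2, Hoxc5 stood at 17.6 where the others had 21.9 to 22.6. In Sav1-null replicate 1, the HoxA sum was 1475 where the others had 1513 to 1517. In wild-type replicate 1, Hoxa10 stood at 1084 where the others had 986 to 995.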

How the results depend on the processing

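Under 18 alternatives the 28 tested members gave the same direction and call in 470 of their comparisons, were weaker in 11, stronger in 5 and reversed in 11. With either other pseudocount, no intensity trend or no filter, all 24 member calls were kept, and with a filter at a mean of 50, where 21 members were tested, 20 were. The counts of members higher and lower moved to 12 and 7 with quantile scaling, and the count lower to 2 with equal totals, where 1946 of all genes were called lower. The share of calls that were higher over all genes was 63.5% as deposited, and 49.9% (median-of-ratios), 48.3% (quantile) and 81.7% (equal totals) otherwise. The median member log2 fold change under these 3 scalings was 0.75, 0.29 and 1.36. Reversals with quantile scaling were Hoxa3 (-0.20), Hoxa4 (-1.10), Hoxa5 (-0.24), Hoxa11 (-0.51), Hoxc4 (-0.18) and Hoxc5 (-0.99). Hoxc6, called lower with median-of-ratios and quantile scaling (-0.45 and -1.01), turned to 0.15 with equal totals. Hoxa4, near 0 as deposited, was -0.20 with median-of-ratios scaling, from -0.10 to 0.10 when 1 library was left out (negative without Sav1-null replicate 1 at -0.10 or wild-type replicate 2 at -0.05), and -0.10 with wild-type replicates 2 and 3 left out. The cause of these shifts was not tested. Leaving out 1 library at a time gave 20 to 21 members higher and 4 lower each time, a median of 0.88 to 1.07, and 5510 to 6363 genes higher and 3152 to 3629 lower over all genes. Leaving out wild-type replicates 2 and 3 together, which had the highest Havcr1 of the wild-type libraries (1099 and 665), was chosen after seeing the data and gave 19 members higher and 3 lower, with Hoxa5 and Hoxa9 no longer called. Same-numbered libraries of the groups correlated at 0.14, 0.08, -0.17 and 0.13 in their deviations from group means. The same-numbered wild-type library correlated best for Sav1-null replicates 1 and 2, but not for replicates 3 and 4. These few correlations cannot settle whether the numbers pair the libraries. With a replicate block 20 members were higher and 4 lower, with a median of 0.98, as without it. The read floor covers counting error only, while the 95% intervals come from the spread between libraries.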
